A study of Mus musculus with 25 samples.

Results

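Strains at the ends of an injury-related expression score were compared by RNA sequencing of the dorsal root ganglion, which holds the cell bodies of sensory neurons next to the spinal cord. The score of a strain was the mean of log2(value + 1) over Atf3, Sprr1a, Gal, Sox11 and Ecel1. The strains were chosen by these 5 measured values: the 8 with the highest scores, called high-score strains, were set against the 8 with the lowest, called low-score strains, out of 25 strains in all. The other 9 strains ranked between them.

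All 25 strains were BXD lines, recombinant inbred mice derived from C57BL6/J and DBA2/J, and none carried a labelled injury, treatment or transgene. The mice were 8 weeks old, and each strain gave 1 library. The strain names end in TyJ or RwwJ, which was the only other labelled difference. The high-score strains were 5 TyJ and 3 RwwJ lines, the low-score strains were 6 TyJ and 2 RwwJ lines, and the strains between were 5 TyJ and 4 RwwJ lines. The sources used here give neither sex nor the number of animals per library, so a difference between strains holds genotype, animal, dissection and library together.

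When the axon of a sensory neuron is cut, the cell body switches on a regeneration programme. Atf3 is the transcription factor used most often as its marker, and Sox11 is another factor of that programme. Sprr1a is a small proline-rich protein that promotes axon growth, Gal encodes the neuropeptide galanin, and Ecel1 is a membrane endopeptidase induced in damaged neurons. Ecel1 is also made by neurons of the brain and spinal cord.

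Values are read counts that the authors scaled between libraries, called scaled counts here, and differences are on the log2(scaled count + 1) scale, high-score minus low-score strains. That scale understates the change of low genes. Totals ran from 24637919 to 26860283 scaled counts per library. The step between low values was clear in 22 libraries and gave an estimated 20070000 to 33820000 reads in 7 high-score strains and 20610000 to 26940000 reads in 7 low-score strains. Avil, a marker of peripheral sensory neurons, was at 19242 to 28042 scaled counts in high-score strains and 15331 to 24675 in low-score strains, so the labelled tissue carried its marker in all 16.

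The score ran from 6.56 to 8.20 in the high-score strains, from 5.22 to 5.90 in the low-score strains, and from 5.94 to 6.54 in the strains between. The boundaries were narrow. BXD44, the last of the high-score strains, scored 6.556, and BXD89, the first strain outside, scored 6.535. At the other end BXD34 scored 5.90 inside the low-score strains and BXD60 scored 5.943 outside them. BXD11 at 8.20 and BXD48 at 7.66 stood above the other 6 high-score strains, of which BXD5 was the highest at 6.75.

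The score genes chose the strains, so their values are a description with no test. Sprr1a had a lowest value of 7, a median of 22.5 and a highest of 326 scaled counts in high-score strains, against 0, 4.5 and 12 in low-score strains. Ecel1 had 15, 65.5 and 387 in high-score strains, against 4, 12.5 and 31 in low-score strains. These 2 low genes made most of the gap in the score, 45.3% from Sprr1a and 40.6% from Ecel1.

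Gal had a lowest value of 530, a median of 750.5 and a highest of 1221 scaled counts in high-score strains, against 375, 533.5 and 678 in low-score strains. Atf3 had 179, 250.5 and 615 in high-score strains, against 131, 191.5 and 311 in low-score strains, and 2 high-score strains lay above every low-score strain. Gal gave 8.49% of the gap in the score and Atf3 gave 6.27%. Sox11 had 59, 64 and 76 scaled counts in high-score strains, against 49, 68 and 98 in low-score strains, a difference of -0.05. All 5 score genes overlapped between the sides. The high-score strains above every low-score strain were 7 in Ecel1, 6 in Gal, 5 in Sprr1a, 2 in Atf3 and 0 in Sox11. The data therefore carry the label of an injury-like state only in part.

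The strains led in different genes. BXD11 was highest in Sprr1a with 326 and in Atf3 with 615 scaled counts. BXD48 was highest in Ecel1 with 387, but its Gal, at 530, was the lowest of the high-score strains. BXD21 was highest in Gal with 1221 and had only 7 scaled counts of Sprr1a. Without BXD11 the Atf3 difference was 0.23, against 0.40 with it.

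**Figure D1:**
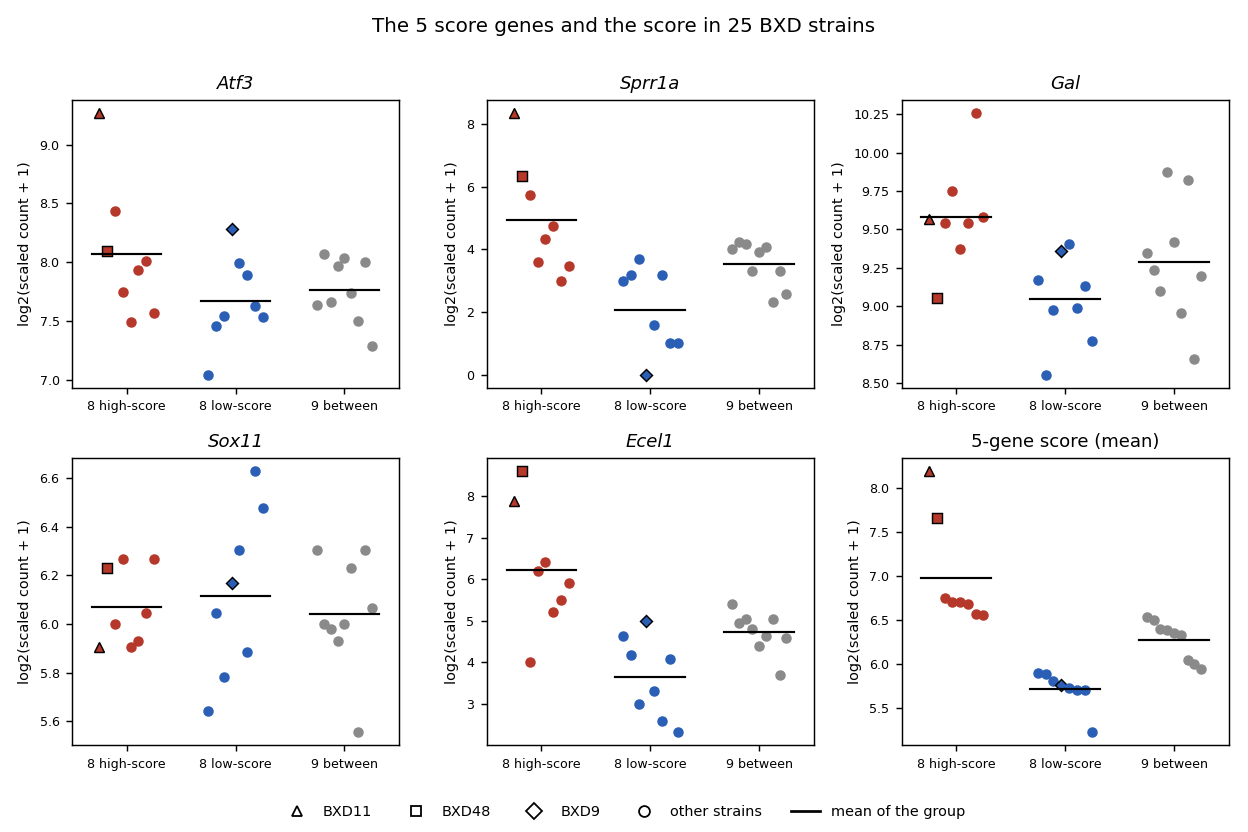
Each panel plots log2(scaled count + 1) of a score gene, or the score itself, in the 8 high-score strains, the 8 low-score strains and the 9 strains between. Points are strains, the horizontal line is the group mean, and symbols mark BXD11, BXD48 and BXD9. Sprr1a and Ecel1 have the largest differences in group means, Sox11 does not separate the sides, and each of the 5 genes overlaps between them.

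Each score gene was also compared between the 8 highest and 8 lowest strains of a score made from the other 4 genes, which does not use the gene itself. None passed with adjustment. The difference was 1.69 for Ecel1, with an SE of 0.60 and an unadjusted limma p of 0.0120 (limma adjusted p = 0.226), 1.44 for Sprr1a (limma adjusted p = 0.333), 0.23 for Atf3 (limma adjusted p = 0.625), 0.22 for Gal (limma adjusted p = 0.550) and -0.10 for Sox11 (limma adjusted p = 0.777), each adjusted over 16148 genes. The unadjusted limma p was 0.105 for Sprr1a and for Gal, 0.301 for Atf3 and 0.454 for Sox11, so Ecel1 alone of the 5 had one under 0.05.

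Promoters of 3 injury-related genes are shown because the AP-1 motif, the binding sequence of the Jun and Fos family, is a known element of injury-induced genes. The windows run from 250 bases before to 50 bases after the gene start, from RefSeq on GRCm38.p6, all on the minus strand. They are Sprr1a at chr3:92485832-92486131, Nts at chr10:102490369-102490668 and Gal at chr19:3414495-3414794. Capitals mark the motif TGACTCA, searched on both strands, where the other strand reads TGAGTCA.
Sprr1a: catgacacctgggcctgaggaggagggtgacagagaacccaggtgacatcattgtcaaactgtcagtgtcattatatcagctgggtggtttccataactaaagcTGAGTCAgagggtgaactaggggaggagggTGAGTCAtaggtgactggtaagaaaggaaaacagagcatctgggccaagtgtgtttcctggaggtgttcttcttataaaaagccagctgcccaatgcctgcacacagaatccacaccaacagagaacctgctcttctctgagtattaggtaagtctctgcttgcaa
Nts: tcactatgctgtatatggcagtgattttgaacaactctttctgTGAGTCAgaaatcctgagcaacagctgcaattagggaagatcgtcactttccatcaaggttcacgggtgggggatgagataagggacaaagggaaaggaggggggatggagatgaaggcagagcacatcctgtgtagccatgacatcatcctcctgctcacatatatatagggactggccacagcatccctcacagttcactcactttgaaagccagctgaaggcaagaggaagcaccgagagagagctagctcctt
Gal: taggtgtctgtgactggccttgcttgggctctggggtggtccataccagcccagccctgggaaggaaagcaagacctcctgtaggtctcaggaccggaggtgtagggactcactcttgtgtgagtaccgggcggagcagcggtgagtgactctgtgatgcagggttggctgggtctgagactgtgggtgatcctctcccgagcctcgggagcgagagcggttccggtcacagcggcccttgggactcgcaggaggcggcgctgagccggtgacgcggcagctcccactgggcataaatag
Sprr1a held the motif 146 and 116 bases before the start, Nts held it 207 bases before, and Gal did not hold it. The promoters of 9 genes were searched, the 5 score genes with Nts, Nrsn1, Cckbr and Npy, and Sprr1a and Nts were the 2 of 9 with the motif. The other 4 score genes, Atf3, Gal, Sox11 and Ecel1, did not hold it. The motif is in 1709 of 32851 mouse promoters of this length, or 5.2%. The cyclic AMP response element TGACGTCA, also searched, is in 1.79% of promoters and was in none of the 9. BXD11 had the highest Sprr1a and the highest Nts of all 25 strains, and also the highest Atf3, whose promoter did not hold the motif. A match is a description of the sequence and not a measured binding site.

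Outside the score, 16147 genes with a mean of at least 10 scaled counts were compared, and 3 passed, or 0.0186% (limma, Benjamini-Hochberg adjusted p under 0.05). Nrsn1 and Eid1, or 0.0124% of those tested, rose and Gpr27, or 0.00619%, fell in high-score strains. Without adjustment, 2141 genes had p under 0.05, which is 13.3% of those tested: 1124 were higher, or 6.96%, and 1017 were lower, or 6.3%. The sides were made from these same libraries, so a p says only that a gene varies with the score beyond the spread between strains.

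Nrsn1 encodes neurensin, a vesicle membrane protein of neurons that is linked to neurite growth. It had a lowest value of 2009, a median of 2588.5 and a highest of 3141 scaled counts in high-score strains, against 1525, 1720 and 2048 in low-score strains. All but 1 high-score strain lay above every low-score strain. The difference was 0.56 with an SE of 0.08 (limma adjusted p = 0.0411).

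Eid1, an inhibitor of differentiation that binds the retinoblastoma protein and the coactivator EP300, had 1055, 1247 and 1533 scaled counts in high-score strains, against 728, 851.5 and 1093 in low-score strains. The sides overlapped in a single high-score strain below the highest low-score strain, BXD9 at 1093. The difference was 0.55 with an SE of 0.09 (limma adjusted p = 0.0413). Gpr27, an orphan G protein-coupled receptor, had 70, 77.5 and 90 in high-score strains, against 88, 150 and 198 in low-score strains. Of the high-score strains, 7 lay below every low-score strain, and BXD9, at 88, was the lowest low-score strain. Its difference was -0.87 with an SE of 0.14 (limma adjusted p = 0.0413).

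These 3 calls rested on which strains were included. Without BXD11 no gene passed, the smallest limma adjusted p was 0.0904, and 1761 genes, or 10.9%, had an unadjusted p under 0.05, with 5.96% higher and 4.94% lower. An exact rank-sum test without BXD11 also called 0. The 3 differences hardly moved: 0.55 for Nrsn1, 0.56 for Eid1 and -0.88 for Gpr27. Without BXD11 and BXD48 no gene passed either, and 1651 genes, or 10.2%, had an unadjusted p under 0.05 in limma, with 5.39% higher and 4.84% lower.

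Leaving out each of the 16 strains in turn gave 0 to 147 higher and 0 to 117 lower genes by limma adjusted p. No gene passed without any 1 of 12 of them. Without BXD9 there were 147 higher and 117 lower genes, without BXD2 29 and 5, without BXD21 10 and 10, and without BXD16 1 and 0. Among the TyJ strains alone, 5 against 6, no gene passed, with 500 higher and 676 lower at an unadjusted limma p under 0.05. In them Nrsn1 differed by 0.47, Eid1 by 0.45 and Gpr27 by -0.94. The RwwJ strains, 3 against 2, were too few for a value of their own.

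**Figure D2:**
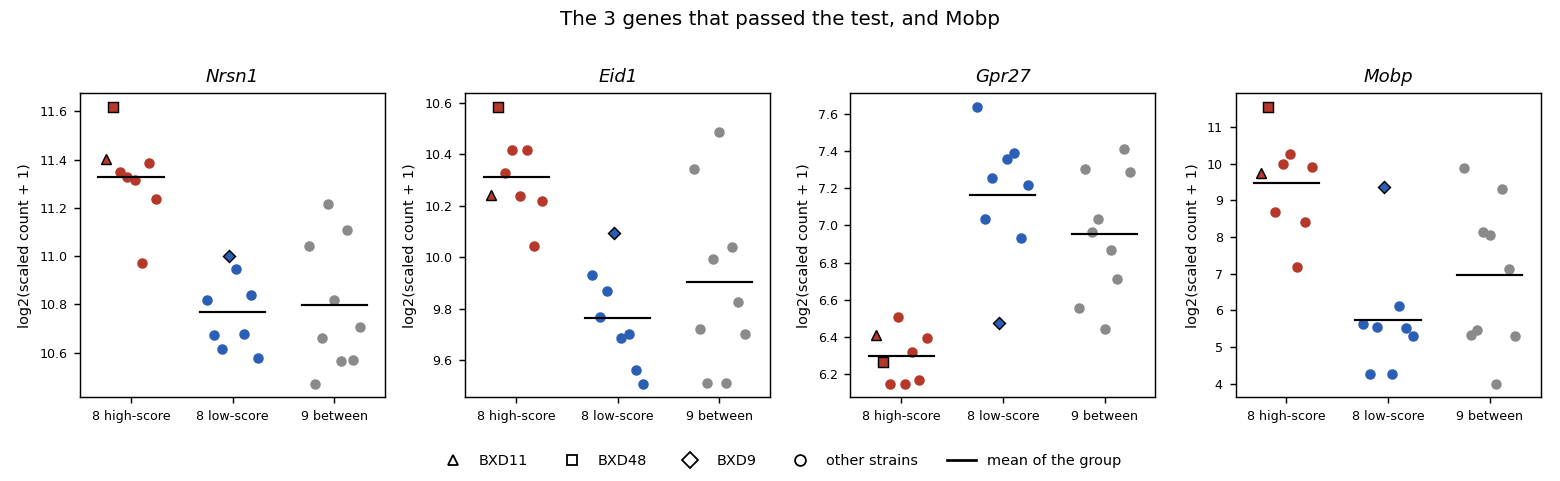
Each panel plots log2(scaled count + 1) of Nrsn1, Eid1, Gpr27 and Mobp in the 8 high-score strains, the 8 low-score strains and the 9 strains between, with the group mean as a line. BXD9, a diamond, is the highest low-score strain in Nrsn1, Eid1 and Mobp and the lowest in Gpr27.

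Genes next in order did not pass. On the higher side, Grina, a membrane protein related to inhibitors of cell death, had a lowest value of 13252, a median of 16043 and a highest of 16926 scaled counts in high-score strains, against 10447, 11782.5 and 14102 in low-score strains (0.40, limma adjusted p = 0.0686). Rhog, a small GTPase that acts in neurite outgrowth, differed by 0.43, Fads1, a fatty acid desaturase, by 0.31, Zdhhc12, a palmitoyltransferase, by 0.47, and Atxn7l3b by 0.21. In each of these 5 genes, 7 high-score strains lay above every low-score strain. The others of the 12 with the smallest p were Mobp, Mog, Opalin, Slc32a1 and Rorb, which are described with the spinal cord genes.

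On the lower side, Nr2f6, an orphan nuclear receptor, had 297, 352.5 and 383 scaled counts in high-score strains, against 382, 475.5 and 516 in low-score strains (-0.40, limma adjusted p = 0.0686). Sema6c, a transmembrane semaphorin, had 478, 563 and 646 in high-score strains, against 662, 779.5 and 1338 in low-score strains, with no overlap (-0.62, limma adjusted p = 0.0811). Ap3s2, a subunit of an adaptor complex, and Psg16, a pregnancy-specific glycoprotein, did not overlap either, at differences of -0.28 and -0.67. In Gabrg1, a GABA-A receptor subunit, the difference was -0.56, and in Adra2c, an adrenergic receptor, it was -0.47.

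The remaining genes of the 12 with the smallest p on the lower side were Galm at -0.52, Clec2l at -0.50, Ccpg1 at -0.48, Dffa at -0.35 and Lrrc49 at -0.34. Ust, a sulfotransferase of chondroitin and dermatan sulfate, was added by the comparison without BXD11, where it differed by -0.51 (limma adjusted p = 0.147). Over all genes, every high-score strain lay above every low-score strain in 4, or 0.0248%, and below in 7, or 0.0434%. Of the 24 genes with the smallest p, 21 had a slope of the same sign on the score among the 9 strains between. Only 2 of these, Galm and Lrrc49, had an unadjusted limma p under 0.05 there. Slopes could be far below their SE, such as 0.08 (SE 0.41) for Nrsn1 and -0.01 (SE 0.32) for Nr2f6. The share of equal signs over all genes was not computed, so the 21 is a description. In those 9 strains no gene passed with adjustment, and 661, or 4.09%, had an unadjusted p under 0.05.

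Of the 35 gene lists compared, that of spinal cord tissue had the largest median difference. It held genes of oligodendrocytes, astrocytes and inhibitory interneurons, cells of the central nervous system, and 11 of its 11 members had an unadjusted limma p under 0.05, 10 higher and 1 lower, against 13.3% of all genes. Its median difference was 3.34, against -0.003 over all genes, and no member passed with adjustment. In bulk tissue, more cells of a type and more RNA per cell cannot be told apart.

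Mobp, a myelin protein of oligodendrocytes, had a lowest value of 145, a median of 908 and a highest of 2992 scaled counts in high-score strains, against 18, 45.5 and 662 in low-score strains. The difference was 3.72 with an SE of 0.66 (limma adjusted p = 0.0686). The highest low-score value was that of BXD9, and the highest of all that of BXD48. Mog, another oligodendrocyte myelin protein, had 14, 214 and 1018 in high-score strains, against 1, 4 and 126 in low-score strains.

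Opalin, an oligodendrocyte membrane protein, had 2, 28 and 174 scaled counts in high-score strains, against 0, 0 and 13 in low-score strains. Slc32a1, the vesicular transporter of GABA and glycine, had 2, 74 and 824 in high-score strains, against 0, 0.5 and 37 in low-score strains. BXD48 held the highest value of each of these genes and BXD9 the highest among the low-score strains. Olig1, a transcription factor of the oligodendrocyte lineage, had 8, 226 and 899 in high-score strains, against 0, 4 and 184 in low-score strains, and Rorb, a nuclear receptor of dorsal horn interneurons, had 5, 14.5 and 156, against 0, 1.5 and 5.

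The lower member was Slc17a7, named after its values were seen. It encodes a vesicular glutamate transporter that large sensory neurons of the ganglion also make, and it had 3173, 3362.5 and 4790 scaled counts in high-score strains, against 4077, 4486 and 7947 in low-score strains (-0.42, limma adjusted p = 0.176).

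The mean of the spinal cord list on the log2 scale, its score, ran from 4.31 to 9.99 in high-score strains, against 3.60 to 6.93 in low-score strains. The highest low-score value was that of BXD9, and all 8 high-score strains lay above every other low-score strain. BXD48 had 9.99 and BXD11 had 7.31. BXD2, at 4.31, was the lowest high-score strain. Ecel1, which helped choose the sides and is also made in the spinal cord, was highest in BXD48 at 387 scaled counts. Among the low-score strains it was highest in BXD9, at 31. In BXD5 it was lower than in BXD2, 15 against 36, although BXD5 had the higher spinal cord score, 5.82. Whether choosing strains by Ecel1 also selected for spinal cord RNA was not tested.

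With this score as a covariate, 0 genes passed, 778 genes, or 4.82%, had an unadjusted limma p under 0.05, with 1.7% higher and 3.12% lower, and the smallest limma adjusted p was 0.949. Nrsn1 then differed by 0.32, Eid1 by 0.40 and Gpr27 by -0.66. All 24 genes with the smallest p kept their sign in that fit, and 18 of them had an unadjusted p under 0.05. Mobp, Mog, Opalin and Slc32a1, which are among the 24, help make the spinal cord score, so they were adjusted in part for themselves. The 24 were picked by p in these same strains, so a kept sign is a description. The spinal cord score itself differed between the sides, with all 8 high-score strains above every low-score strain but BXD9. This fit therefore cannot fully tell the 2 scores apart. The SE grew from 0.08 to 0.10 for Nrsn1, from 0.09 to 0.12 for Eid1 and from 0.14 to 0.20 for Gpr27. The part of spinal cord RNA in the differences was not tested in another way.

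**Figure D3:**
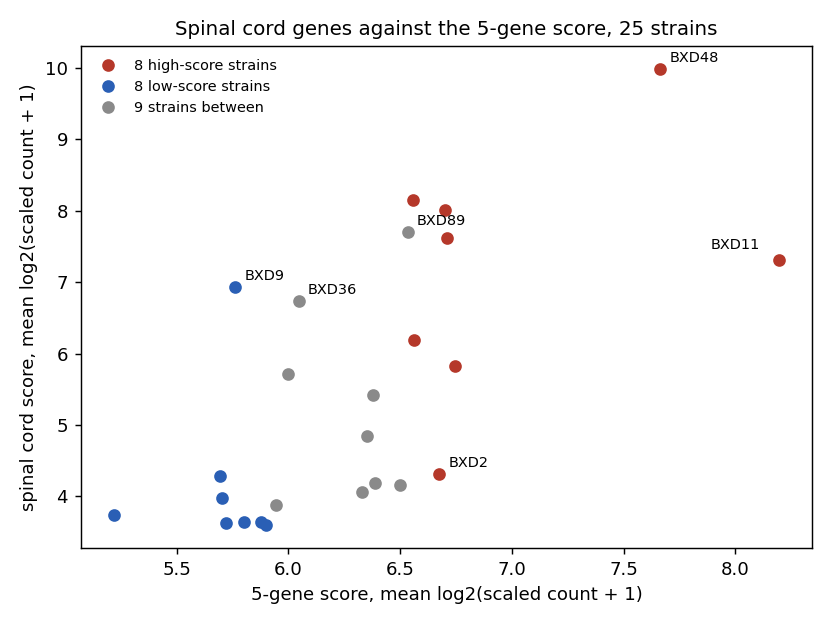
Each point is a strain, with the 5-gene score on the x axis and the mean log2(scaled count + 1) of 11 spinal cord genes on the y axis. High-score strains lie between 4.31 and 9.99 on the y axis and low-score strains between 3.60 and 6.93, where BXD9 is the highest low-score strain.

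Genes of other tissues that adjoin a ganglion were compared in the same way. Of 12 skeletal muscle genes, 4 were higher and 0 lower at an unadjusted limma p under 0.05, with a median of 1.40. Of all genes tested, 6.96% were higher and 6.3% lower. The muscle score ran from 7.83 to 10.52 in high-score strains, against 5.66 to 11.33 in low-score strains, so the sides overlapped throughout. Acta1, the actin of skeletal muscle, had 982, 1849.5 and 5139 scaled counts in high-score strains, against 91, 590 and 5557 in low-score strains (1.74, limma adjusted p = 0.307).

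Of 10 adipose genes, 3 were higher, against 6.96% of all genes, with a median of 0.73. Ucp1, the uncoupling protein of brown fat, differed by 2.17 (limma adjusted p = 0.214), with medians of 160 scaled counts in high-score strains and 24.5 in low-score strains. Hba-a2, a haemoglobin chain whose reads can be shared with its near-identical copy, differed by 1.85 (limma adjusted p = 0.230), and it was the single higher gene of 8 erythroid ones. The part of these tissues in other differences was tested for muscle and erythroid genes only, as covariates, where no gene passed.

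Among transcription factors of the injury response outside the score, few had a low p. Of 23 tested, 1 was higher and 1 lower at an unadjusted limma p under 0.05, or 8.7%, below the 13.3% over all genes, and the median was 0.02. Atf5, a stress-responsive relative of Atf4, had 1803, 2580 and 3062 scaled counts in high-score strains, against 1793, 2051 and 2519 in low-score strains (0.26, limma adjusted p = 0.265). BXD11 was at 3062 and BXD48 at 1803, the ends of the high-score range. With the spinal cord score as a covariate Atf5 differed by 0.45 (unadjusted limma p = 0.0058, limma adjusted p = 0.949).

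Jun, the AP-1 subunit induced with Atf3 after axotomy, had 1381, 1656.5 and 2182 in high-score strains, against 1693, 1878.5 and 2092 in low-score strains (-0.20, limma adjusted p = 0.284). All but 1 high-score strain, BXD5, lay below every low-score strain. Of 11 AP-1 family genes, 3 were lower, Jun, Mafg and Jund, and 0 higher, with a median of -0.10, against 6.3% of all genes lower. In the fit with the spinal cord covariate 0 of 11 were lower, the median was -0.03, Jun differed by -0.07 and Jund by -0.15. Jund had 2148, 2320.5 and 2952 in high-score strains, against 2441, 2895 and 3449 in low-score strains (-0.27, limma adjusted p = 0.153).

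Of 48 other genes that sensory neurons induce after injury, 9 were higher and 2 lower at an unadjusted limma p under 0.05. That was 22.9%, against 13.3% of all genes, with a median of 0.09, and none passed with adjustment. The 2 lower were Plat at -0.37 and Tubb6 at -0.24 (limma adjusted p = 0.306 and 0.372). Without BXD11 5 were higher and 1 lower, against 5.96% and 4.94% of all genes. With the spinal cord score as a covariate 4 were higher and 0 lower, against 1.7% and 3.12% of all genes.

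Cckbr, the receptor for cholecystokinin and gastrin that axotomised sensory neurons induce, had 9, 12 and 106 scaled counts in high-score strains, against 1, 4.5 and 7 in low-score strains. The sides did not overlap, and the difference was 2.14 with an SE of 0.50 (limma adjusted p = 0.0897). BXD48 had 106 and BXD11 had 77, while the other 6 high-score strains ran from 9 to 26. Without both strains the difference was 1.46, and with the spinal cord score as a covariate it was 0.84 (unadjusted limma p = 0.193).

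Gfra3, the receptor for artemin, had 926, 1342 and 1706 in high-score strains, against 599, 871 and 1342 in low-score strains (0.61, limma adjusted p = 0.149). Its difference was larger, 0.87, under the spinal cord covariate, and BXD48 was the lowest of the high-score strains. Plaur, the urokinase receptor, had 147, 197.5 and 240 in high-score strains, against 103, 138.5 and 208 in low-score strains (0.43, limma adjusted p = 0.236). Plaur too had a larger difference under the covariate, 0.62. Cd44, a hyaluronan receptor, differed by 0.35 (limma adjusted p = 0.178), and by -0.03 with the spinal cord score as a covariate.

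Gap43 and Gpr151 were named after their values were seen. Gap43, the growth-cone protein of regenerating axons, had 5021, 6204.5 and 7427 in high-score strains, against 4984, 5453 and 6563 in low-score strains (0.17, limma adjusted p = 0.330). Gpr151, an orphan receptor induced by nerve injury, had 36, 65 and 96 in high-score strains, against 34, 45 and 64 in low-score strains (0.44, limma adjusted p = 0.335). BXD11 had the highest Gpr151, and both genes overlapped widely between the sides.

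The injury-induced neuropeptide list had a median difference of 0.89. Of 11 genes listed, 5 were measured, and 4 of these were higher at an unadjusted limma p under 0.05, while the fifth was not. The share of all genes higher was 6.96%. Nts, neurotensin, had 314, 566 and 2662 scaled counts in high-score strains, against 245, 344.5 and 434 in low-score strains, with 6 high-score strains above every low-score strain (0.89, limma adjusted p = 0.229). The highest value was that of BXD11, followed among the high-score strains by BXD48 with 995, and without both the difference was 0.45. Of the strains between, BXD40 had 1229 and BXD1 had 914.

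Npy, neuropeptide Y, which sensory neurons switch on after axotomy, had 5, 31 and 207 in high-score strains, against 3, 8.5 and 14 in low-score strains (2.04, limma adjusted p = 0.157). BXD48 had 207 and BXD11 137, and without both the difference was 1.29. Cck, cholecystokinin, had 8, 55.5 and 266 in high-score strains, against 4, 10 and 14 in low-score strains (2.38, limma adjusted p = 0.0811).

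Npy and Cck are also made by interneurons of the spinal dorsal horn. With the spinal cord score as a covariate, Npy differed by 0.20, Cck by 0.56 and Nts by 0.71. Adcyap1, which encodes PACAP, had 1403, 1824 and 2782 in high-score strains, against 1238, 1583 and 1865 in low-score strains, a difference of 0.28 (limma adjusted p = 0.337). It was 0.43 under the covariate, and BXD48 was its lowest high-score strain.

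**Figure D4:**
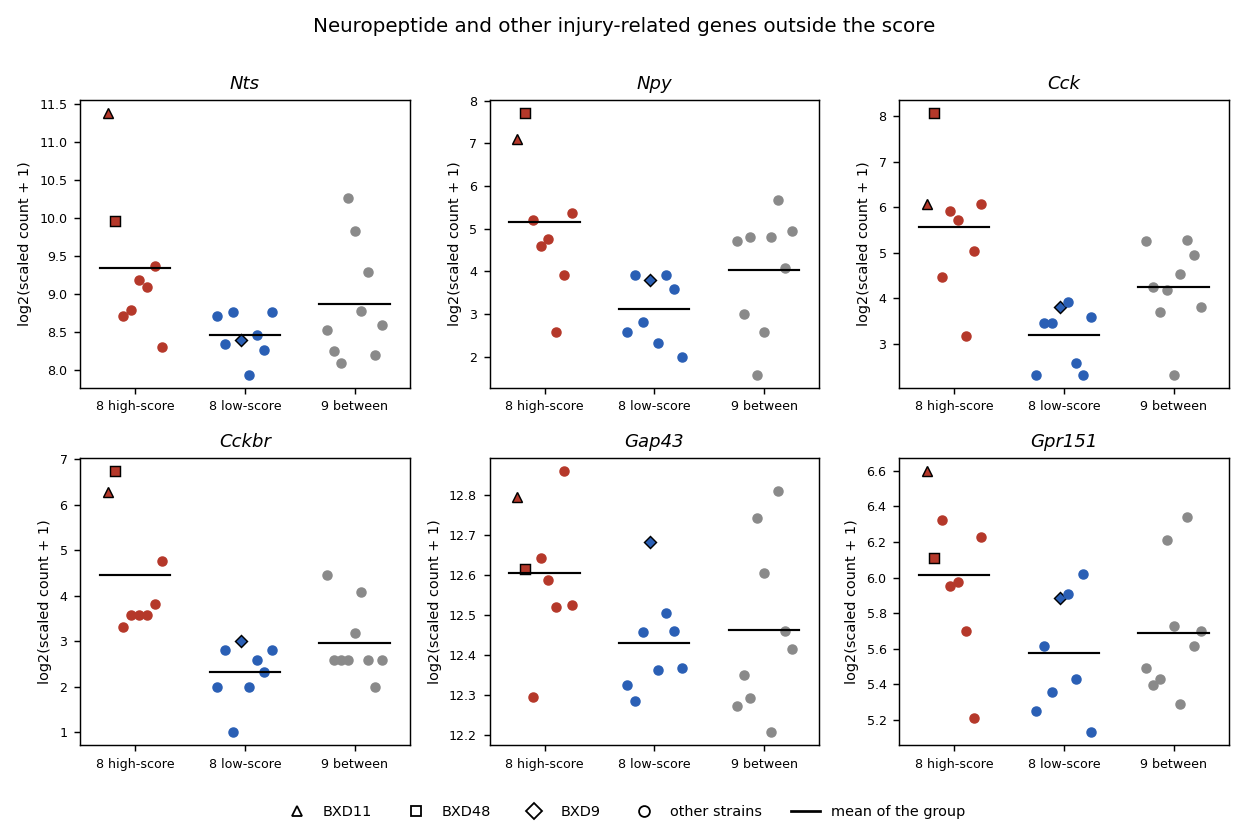
Each panel plots log2(scaled count + 1) of Nts, Npy, Cck, Cckbr, Gap43 or Gpr151 in the 8 high-score strains, the 8 low-score strains and the 9 strains between, with the group mean as a line. BXD11 and BXD48 are the 2 highest high-score strains in Nts, Npy and Cckbr.

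Genes that sensory neurons lower after nerve injury showed no shared direction. Of 35, 3 were higher and 6 lower at an unadjusted limma p under 0.05, against 6.96% and 6.3% of all genes, with a median of 0.01. Kcnab2, a potassium channel subunit, differed by -0.23 and Nefm, the medium neurofilament, by -0.37 (limma adjusted p = 0.184 and 0.194). Gfra2, a neurturin receptor, differed by 0.24 and Scn11a, a sodium channel of nociceptors, by 0.35 (limma adjusted p = 0.228 and 0.233). Under the spinal cord covariate 0 of the 35 were higher and 2 lower, against 1.7% and 3.12% of all genes. Gfra2 then differed by 0.08 and Scn11a by 0.09.

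Among neuron types, pruriceptor genes, those of itch-sensing neurons, were higher in 6 of 9 at an unadjusted limma p under 0.05, with a median of 0.53. Among all genes 6.96% were higher. Without BXD11 and BXD48 5 of 9 were higher, against 5.39% of all genes. Nppb, the peptide of itch neurons, had 415, 822 and 1319 scaled counts in high-score strains, against 197, 525.5 and 774 in low-score strains (0.79, limma adjusted p = 0.226). Il31ra, the receptor of the itch cytokine interleukin-31, had 351, 535 and 877 in high-score strains, against 226, 354.5 and 576 in low-score strains (0.65, limma adjusted p = 0.213). Npy2r, a neuropeptide Y receptor, differed by 0.43 (limma adjusted p = 0.170). With the spinal cord score as a covariate the list's median was 0.50 and 2 of 9 were higher, against 1.7% of all genes. Nts belongs to this list too.

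Large-diameter neuron genes were lower in 6 of 12 at the same unadjusted threshold, against 6.3% of all genes, with a median of -0.25 and 0 higher. Without BXD11 3 of 12 were lower, against 4.94% of all genes, and with the spinal cord score as a covariate 1 of 12, against 3.12%. Runx3, a transcription factor of proprioceptors, had 115, 140 and 178 in high-score strains, against 125, 185 and 364 in low-score strains (-0.48, limma adjusted p = 0.221), and it differed by -0.10 under the covariate. Of the peptidergic nociceptor genes 2 of 8 were higher, of the non-peptidergic 3 of 10, of C-low-threshold mechanoreceptors 2 of 8, and of pan-neuronal genes 1 of 14 was higher and 1 lower. Under the covariate these higher counts were 2, 0, 1 and 0 in the same order. The share of all genes higher was 6.96%, and 1.7% under the covariate. Trpv1, the capsaicin receptor, differed by 0.22 and Tac1, the substance P precursor, by 0.24, both with overlapping sides (limma adjusted p = 0.554 and 0.535).

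Satellite glia genes, of the cells that wrap the neuron bodies, were higher in 10 of 13 at an unadjusted limma p under 0.05. That compares with 6.96% of all genes. The list's median was 0.41, and most of its genes are also made by astrocytes or oligodendrocytes. Gfap, an intermediate filament of astrocytes that satellite glia raise after injury, had 272, 1200.5 and 4401 scaled counts in high-score strains, against 39, 106 and 1144 in low-score strains (3.02, limma adjusted p = 0.0811). Kcnj10, a glial potassium channel, differed by 1.03 (limma adjusted p = 0.0919). Of the 13 genes, 12 had a positive difference. Fabp7 went the other way at -0.08, with medians of 6425 scaled counts in high-score strains and 8238 in low-score strains (limma adjusted p = 0.949).

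With the spinal cord score as a covariate, Gfap differed by 0.41 and Kcnj10 by 0.13, and 1 of the 13 was higher, against 1.7% of all genes. That gene was Fabp7, at 1.02 (unadjusted limma p = 0.0169). Among repair Schwann cell genes, 4 were higher and 3 lower of 13, and 0 and 0 with the spinal cord score as a covariate. One of the higher ones was Olig1, at 4.59 and at 0.60 under the covariate, which was described with the spinal cord genes. One of the lower ones was Shh, a morphogen of denervated Schwann cells, at -0.38 (limma adjusted p = 0.171). Of 17 myelinating Schwann cell genes 1 was higher and 3 lower, and 0 and 1 under the covariate. Beside both Schwann cell lists, 6.96% of all genes were higher and 6.3% lower. Under the covariate these shares were 1.7% and 3.12%. Gldn, a protein of the node of Ranvier, differed by -0.50 (limma adjusted p = 0.0919).

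Macrophage genes were higher in 5 and lower in 1 of 21 at an unadjusted limma p under 0.05, with a median of 0.19. The shares of all genes were 6.96% and 6.3%. C1qb, a complement component of macrophages, had 771, 1287.5 and 1418 in high-score strains, against 464, 744.5 and 1160 in low-score strains (0.61, limma adjusted p = 0.185). Mrc1, a mannose receptor, differed by 0.41, and Csf1r, the receptor for macrophage growth factor, by 0.35 (limma adjusted p = 0.229 and 0.250). Without BXD11 the macrophage counts were 3 and 0, against 5.96% and 4.94% of all genes. Under the spinal cord covariate they were 1 and 0, against 1.7% and 3.12%.

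No member differed at an unadjusted limma p under 0.05 in the lists of immediate early genes (18 tested), heat shock genes (11), interferon response genes (20), MHC class II genes (7), lymphocyte and neutrophil genes (14), fibroblast and matrix genes (15), endothelium and mural genes (12), mast cell genes (6) and cell cycle genes (18). Egr1, an immediate early transcription factor, had 426, 502.5 and 735 scaled counts in high-score strains, against 259, 363.5 and 990 in low-score strains (0.36, limma adjusted p = 0.533).

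Complement genes were higher in 2 of 11, unfolded protein and amino acid response genes in 2 of 26, glucocorticoid targets in 1 of 14 and cholesterol synthesis genes in 1 of 21, with none lower. Of 13 genes of the IL-6 family and STAT3, 1 was higher and 3 lower. Of 16 tubulins and stathmins 2 were higher and 2 lower, and of 8 cartilage and bone genes 1 was higher and 1 lower. These counts stand beside 6.96% of all genes higher and 6.3% lower. No member of any of the 35 lists passed with adjustment.

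**Figure D5:**
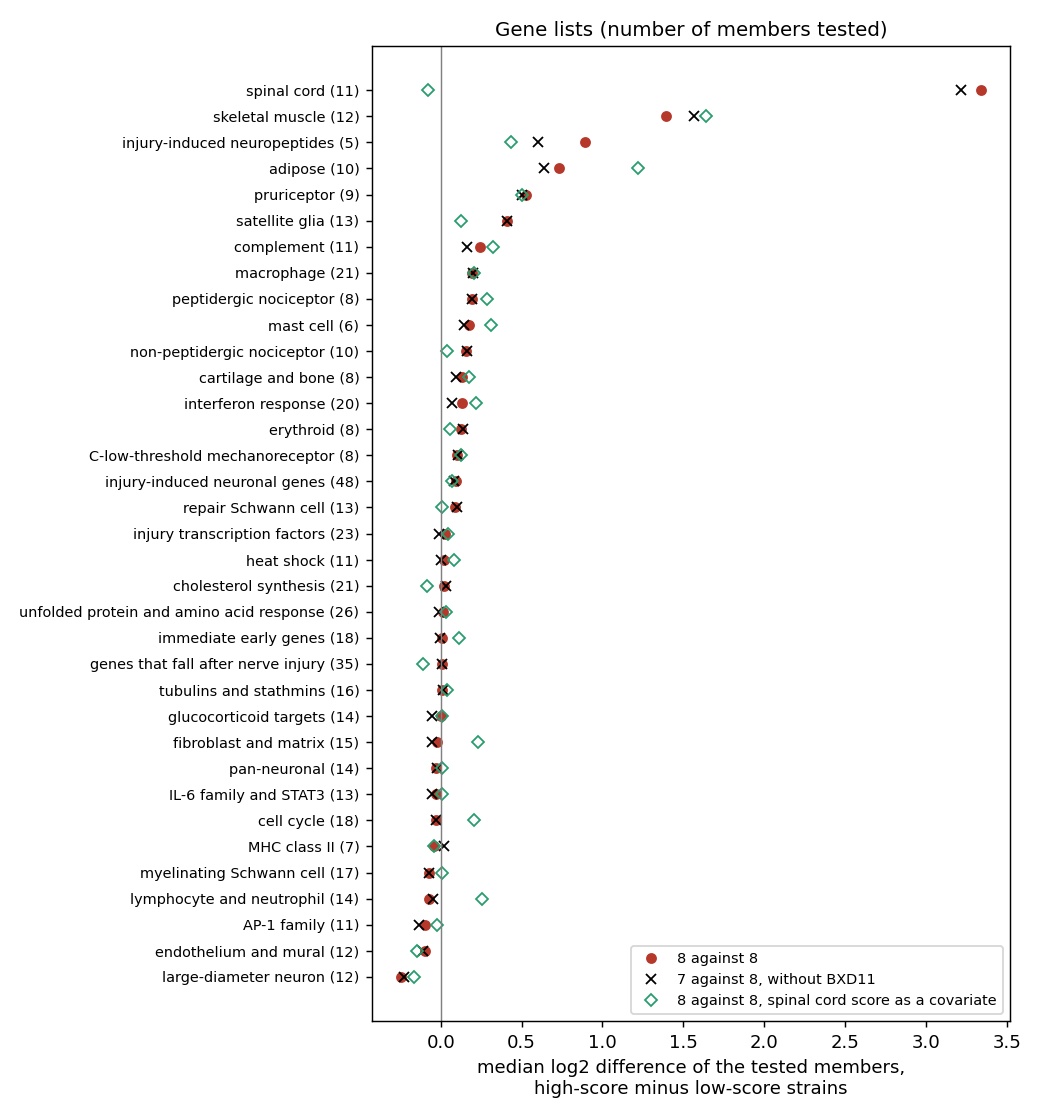
Each row is a gene list, with the number of members tested, and the x axis is the median log2 difference of those members, high-score minus low-score strains. Filled circles are 8 against 8, crosses 7 against 8 without BXD11, and open diamonds 8 against 8 with the spinal cord score as a covariate. The spinal cord list is at 3.34, 3.21 and -0.08 in that order. Its own members make the covariate, so a last value near 0 is built into that fit and is not a result.

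The 8 genes outside the score whose log2 values were most alike to it over 25 strains are given with Pearson's r as a description. Cckbr was first at 0.83, followed by Trp53inp2, an autophagy gene, at 0.78, Kcnj10 at 0.78, 4833439L19Rik at 0.78, Atxn7l3b at 0.75, Mmd at 0.75, Cstf2t at 0.75 and Rhbdd1 at 0.75. Over the 23 strains without BXD11 and BXD48, r ran from 0.58 for Cstf2t and Rhbdd1 to 0.70 for Trp53inp2 and Atxn7l3b. The strains share 1 scaling and the spinal cord genes vary along the same order. Among these genes, 4833439L19Rik had 3027, 3136 and 3392 scaled counts in high-score strains, against 2619, 2788.5 and 2956 in low-score strains, with no overlap, and Trp53inp2 had 3396, 3918 and 5327, against 2861, 3036 and 3685, with 6 high-score strains above every low-score strain.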

How the data were processed

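Dorsal root ganglion RNA was sequenced from 25 strains. The tools were TopHat2 2.0.9, CASAVA 1.8.0 and HTSeq, and the builds mm9 and NCBIM37, per the submitters' processing notes. The deposited values are a normalized score: whole numbers that the authors scaled so that the third quartile is 1478 in every column. They are not raw counts, so no count model was fitted. Kit labels name TruSeq v2, which does not mark strand. All 25 columns were matched to samples.

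Log2(value + 1) was compared with limma 3.58.1 in R 4.3.3 (trended prior, two-sided, Benjamini-Hochberg at 0.05 over 16147 genes). The filter, a mean of at least 10, was read as 10 scaled counts and left out 68 genes. A simulation changed 100 genes by a log2 of 1 and 100 by 2, leaving out low genes, with independent normal noise. It recovered 87% of the first and 98% of the second. These shares hold for that setting and do not give the chance of a call in the real strains. There Mobp differed by 3.72 and did not pass. GENCODE annotated 15697 of 16220 identifiers. Each strain is 1 library, so p-values measure the spread between libraries.

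Members and gene lists were chosen with earlier results of these data known. Genes named are the 12 of smallest p per direction, up to 6 more without BXD11, up to 4 per list and the 8 most alike. The text gives 64 of these, picked after their values were seen and with a preference for genes whose direction held across the alternatives. It gives 3 more outside the rule, Slc17a7, Gap43 and Gpr151. Plat, Tubb6 and Fabp7, also outside the rule, are given because they went the other way from most of their list. Leaving out strains, other scores, filters, scalings, covariates and a rank-sum permutation test were tried.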

Additional observations from a re-analysis of the deposited data

Results flagged for a closer look

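Among 219 groups of 8 or 9 strains, 16 had a strain whose gap to the nearest other was large for the group's range by Dixon's test on log2 values, and chance gives about 1 in 20. BXD9 was the highest low-score strain in 7 of them: Mobp at 662 scaled counts, Mog at 126, Slc32a1 at 37, Opalin at 13, Gfap at 1144, Olig1 at 184 and Kcnj10 at 2517. BXD48 was apart among the high-score strains in Rorb at 156 and Trp53inp2 at 5327. Rhbdd1 was apart in BXD11 among the high-score strains, at 705, and in BXD89 among the strains between, at 619. Jun stood out in BXD5 at 2182 among the high-score strains. Slc17a7 was highest in BXD73 at 7947 among the low-score strains. Among the strains between, Sox11 was lowest in BXD36 at 46 scaled counts, and Trpv1 was highest in BXD40 at 4080. BXD87 had the lowest 5-gene score of the low-score strains, 5.22. The strains were grouped by this score. For the score and its genes, such as Sox11, the 1 in 20 therefore does not hold, and their flags are a description.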

How the results depend on the processing

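The counts of genes passing limma moved with the choice of strains and score, and the cause was not tested. As higher and lower genes, against 2 and 1, they were 0 and 0 without BXD11, without BXD11 and BXD48 (chosen after seeing the data), with 6 strains per side, in TyJ strains only, with the score lacking Gal or Ecel1, with the muscle, spinal cord, erythroid or myelinating Schwann cell score as a covariate, and in the exact rank-sum permutation test. They were 1 and 0 with a mean log2 of at least 10, which tests fewer genes, 3 and 4 with the score lacking Sox11, and 6 and 6 with BXD11 replaced by the next strain, also set against the 0 and 0 without BXD11. They were 9 and 21 with the strain ending as a covariate, 51 and 74 with 10 strains per side, 66 and 45 with the score as a continuous term over 25 strains, 89 and 59 with standardised score genes, 100 and 136 with the score lacking Atf3, 314 and 271 with array weights, and 591 and 453 with the score lacking Sprr1a. Leaving out a strain gave 0 to 147 and 0 to 117. Nrsn1, Eid1 and Gpr27 kept their direction under every alternative run. Nrsn1 passed in 14 of 25, with adjusted p from 0.000505 to 0.949. Eid1 passed in 13 of 24, with adjusted p from 0.000756 to 0.949, and Gpr27 in 12 of 24, from 5.58e-05 to 0.949. With the spinal cord covariate Cd44 reversed to -0.026, Plat to 0.044, Tubb6 to 0.056 and Fabp7 to 1.02. Over 158 genes, those of the naming rule with Slc17a7, Gap43 and Gpr151, 69 of 3849 values reversed, in 38 genes. Of those values 23 were under a tissue covariate.

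No paired analysis was possible because the labels give no replicate numbers and each strain has 1 library. Depth limits low genes: values of a few scaled counts, such as Sprr1a in low-score strains, rest on few reads.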
